A study of Mus musculus with 62 samples.

Results

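The genes described here encode the nuclear subunits of respiratory complexes III and IV and of ATP synthase, together with cytochrome c. They were taken by symbol, as all names that begin with Uqcr, with Cox4 to Cox8 or with Atp5, plus Cyc1 and Cycs, with pseudogene symbols left out. This rule gave 45 of the 47643 symbols measured: 9 of complex III (Cyc1 included), Cycs alone for cytochrome c, 18 of complex IV and 17 of ATP synthase. RNA had been sequenced from tibialis anterior muscle, which lies at the front of the shin and consists mostly of fast fibres, of female mice aged 2 months. The mice had received melanoma cells described as cachectic (CAC), melanoma cells described as non-cachectic (NCAC) or, in the mock group (Con), an injection without tumour cells, and muscle was taken after 2, 4, 6 and 8 weeks. Each of these 12 groups held 5 libraries except CAC at 8 weeks, which held 7, so that 62 libraries were compared. The sample labels give the strain as C57BL6/J, whereas the series text gives NCI Ath/nude mice, which lack a thymus and so most T cells. The melanoma lines are not named in the labels, and the labels name no transgene. The protocols call the libraries biological replicates, and all p-values below measure the spread between them.

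Electrons from the breakdown of sugars and fats enter the respiratory chain of the inner mitochondrial membrane, pass through complex III to the small carrier cytochrome c, and are handed by complex IV to oxygen. Complexes III and IV move protons across the membrane as they work, and ATP synthase lets the protons flow back and uses that flow to make ATP. Most subunits of the complexes are encoded in the nucleus and a few in mitochondrial DNA, and several subunits of complex IV exist in one form made mainly in heart and skeletal muscle and another made in most tissues. Cachexia is a wasting syndrome seen with advanced tumours, and muscle depends on these complexes for sustained work.

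Levels are given in TPM, the share of all transcripts in a library after correction for their length, scaled to the same total in every library. A smaller share of abundant transcripts therefore raises the values of all other genes. The mitochondrially encoded genes alone held 37.7 ± 2.43% of all TPM in CAC, 47.4 ± 1.96% in NCAC and 48.8 ± 7.07% in Con muscle at 8 weeks (SD), and the median log2 change of the 11107 genes tested was 0.46 in CAC against Con. Changes of the genes described at 8 weeks against Con are therefore given for the values as deposited and also after median-of-ratios rescaling, which divides each library by a factor (0.610 to 1.46 over the libraries) that brings the median gene to no change (0.01 on the log2 scale at 8 weeks). Tests used limma on log2(TPM + 1), and a gene was called at an adjusted p under 0.05 over all 11107 genes. A gene is written as having risen or fallen only where it was called. Whether fewer fibres or less RNA per fibre lay behind a change cannot be told apart in whole muscle.

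Markers of muscle fibres were high in all groups at 8 weeks, at a summed 71907 TPM in CAC and 70061 TPM in Con muscle. Con replicate 5 at 8 weeks stood apart with 58.9% of its TPM in mitochondrially encoded genes and 52417 TPM in muscle fibre markers, and it had the lowest value of its group for many of the genes below. NCAC replicate 4 at 6 weeks (61.1% and 47789 TPM) and Con replicate 5 at 2 weeks (58.3% and 39800 TPM) were alike in this. The effect of each on the counts is given beside them. Of the genes described, Atp5g2 shares 38.3% of the 50-base stretches of its exons with other annotated genes, Cycs 25.9%, Uqcrb 25.4% and Cox7c 22.1%, and how the authors divided such reads is not given, so their levels are less certain. Cox7a1, Cox7a2, Cox8a, Cox8b, Cox6a2, Cyc1, Uqcrc1, Uqcrc2, Uqcrfs1 and Atp5g3 share none.

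Taken over all 62 libraries, the most abundant of these transcripts was Cox6a2, the muscle form of a complex IV subunit, with a mean of 1927 TPM. It was followed by Atp5l, a subunit of the membrane part of ATP synthase (1775 TPM), Atp5a1 and Atp5b, its alpha and beta subunits (1692 and 1604 TPM), Cox8b (1417 TPM), Cox5a (1241 TPM) and Cox7a1. At the other end stood Cox4i2, a form of a complex IV subunit best known from lung, at 4.55 TPM, Atp5s at 14.5 TPM and Atp5sl at 24.0 TPM. The last of these has an ATP synthase name, although its RefSeq name is Dmac2 and it is known as an assembly factor of complex I. Cox6b2, Cox7b2 and Cox8c, which are known from testis, did not reach the mean of 1 TPM needed to enter the test, and Cox8c was listed at 0 in every library. The remaining 42 genes were tested.

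Summed over all 45 genes, the transcripts made up a smaller share of the RNA of CAC muscle at 6 and 8 weeks, on average, than of either other group. To set aside the mitochondrially encoded transcripts, which also changed, the share was taken of the TPM outside them. It was 4.77 ± 0.673% in CAC, 4.70 ± 0.506% in NCAC and 5.13 ± 0.736% in Con at 2 weeks, and 4.60 ± 0.663% in CAC, 5.45 ± 0.201% in NCAC and 5.29 ± 0.528% in Con at 4 weeks. At 6 weeks it was 3.84 ± 0.374% in CAC, 5.04 ± 0.732% in NCAC and 5.01 ± 0.5005% in Con, and at 8 weeks 3.60 ± 0.385% in CAC, 4.97 ± 0.373% in NCAC and 4.92 ± 0.313% in Con. The 8-week libraries covered 3.17 to 4.07% in CAC, 4.50 to 5.51% in NCAC and 4.57 to 5.24% in Con, so that no CAC library reached the lowest library of another group. The same was seen at 6 weeks against Con, with 3.45 to 4.24% in CAC and 4.31 to 5.61% in Con. Without the libraries that stood apart, the mean share was 4.87 ± 0.337% in Con at 8 weeks, 4.74 ± 0.39% in NCAC at 6 weeks and 4.89 ± 0.571% in Con at 2 weeks (SD, n = 4 each).

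**Figure D1:**
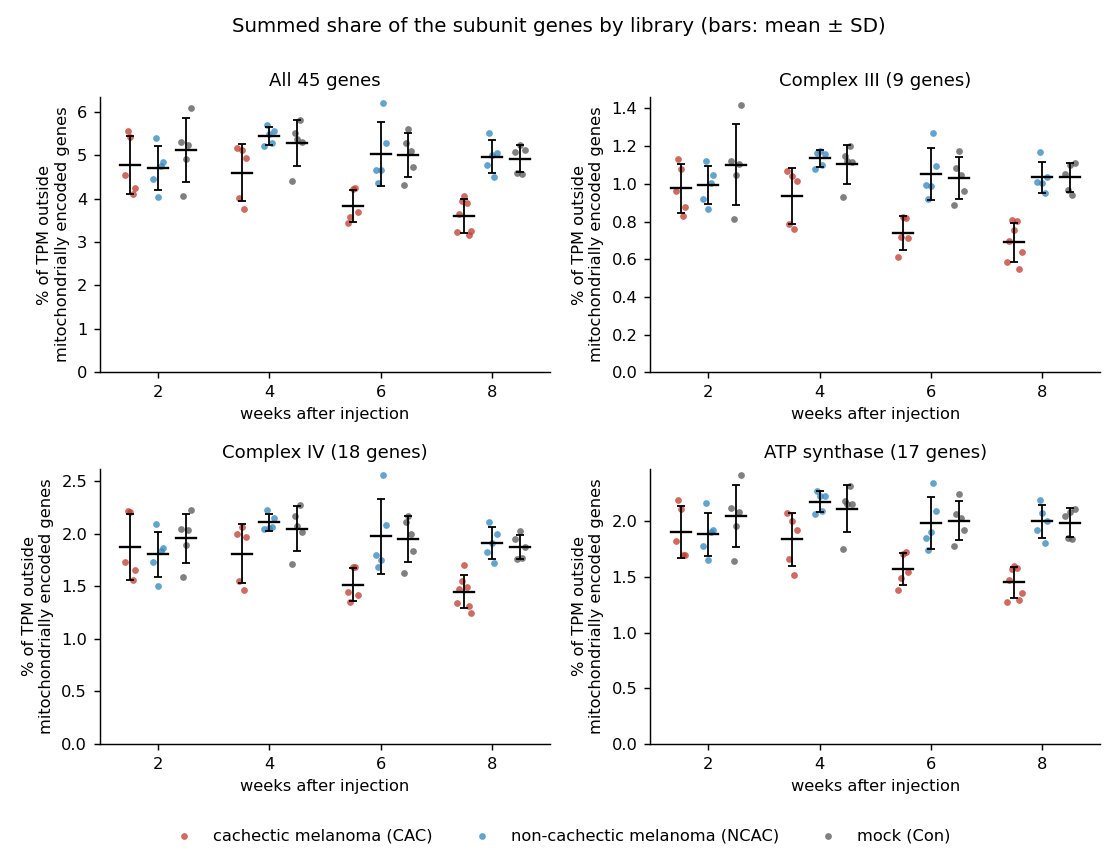
Share of the TPM outside the mitochondrially encoded genes (percent, y axis) held by all 45 genes and by the genes of complex III, complex IV and ATP synthase, at 2, 4, 6 and 8 weeks (x axis), with CAC, NCAC and Con from left to right in each week; points are libraries and bars are the mean ± SD. At 8 weeks the CAC libraries lie at 3.17 to 4.07% for all genes, below 4.50 to 5.51% in NCAC and 4.57 to 5.24% in Con.

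Each complex also had its lowest mean share in CAC at 8 weeks. Complex III held 0.690 ± 0.103% in CAC, 1.03 ± 0.0823% in NCAC and 1.03 ± 0.0766% in Con of the TPM outside mitochondrial genes. For complex IV the share was 1.45 ± 0.157% in CAC, 1.91 ± 0.151% in NCAC and 1.87 ± 0.116% in Con, and for ATP synthase 1.45 ± 0.141% in CAC, 2.00 ± 0.148% in NCAC and 1.99 ± 0.131% in Con. Without setting aside the mitochondrial transcripts, the summed levels were closer together. Complex III summed to 4286 ± 550.2 TPM in CAC, 5427 ± 305 TPM in NCAC and 5257 ± 455 TPM in Con, complex IV to 8979.5 ± 752 TPM in CAC, 10036 ± 571 TPM in NCAC and 9549 ± 1098 TPM in Con and ATP synthase to 9012 ± 685 TPM in CAC, 10485 ± 531 TPM in NCAC and 10105 ± 904 TPM in Con. On this scale the mean of CAC over the mean of Con was 0.815 for complex III, 0.940 for complex IV and 0.892 for ATP synthase. The libraries of CAC and Con overlapped in all 3, at 3582 to 5063 TPM in CAC and 4561 to 5810.3 TPM in Con for complex III, 7656 to 9953 TPM in CAC and 7677 to 10557 TPM in Con for complex IV, and 8216 to 10003 TPM in CAC and 8668 to 11129 TPM in Con for ATP synthase.

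Gene by gene, 17 of the 42 tested genes fell and 5 rose in CAC against Con at 8 weeks, in values as deposited. Over all genes tested 5.09% were called lower and 69.4% higher, so that the genes of these complexes were called lower more often, at 40.5%, and higher less often, at 11.9%, than the table as a whole. After rescaling, 36 fell and 0 rose, beside 24.9% of all genes called lower and 23.8% called higher. The median log2 change of the 42 genes was -0.17 as deposited, against 0.46 for all genes, and -0.70 after rescaling, against 0.01. Without Con replicate 5, the library with the high mitochondrial share, 24 fell as deposited. The 7 gained in this way were Atp5b, Atp5d, Atp5g1, Atp5j2, Atp5o, Cox4i1 and Uqcr10.

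By complex, 5 of 9 genes of complex III fell at 8 weeks and 0 rose, with a median of -0.23 and a range of -0.62 to -0.14. In complex IV 4 of 15 fell and 4 rose, with a median of -0.06. In ATP synthase 7 of 17 fell and 1 rose, with a median of -0.20, and Cycs fell. The 7 include Atp5sl, which is counted there by its symbol although it is known as an assembly factor of complex I. After rescaling, 9 of 9 genes of complex III, 10 of 15 of complex IV, 16 of 17 of ATP synthase and Cycs fell. Whether the complexes differ from one another was not tested.

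**Figure D2:**
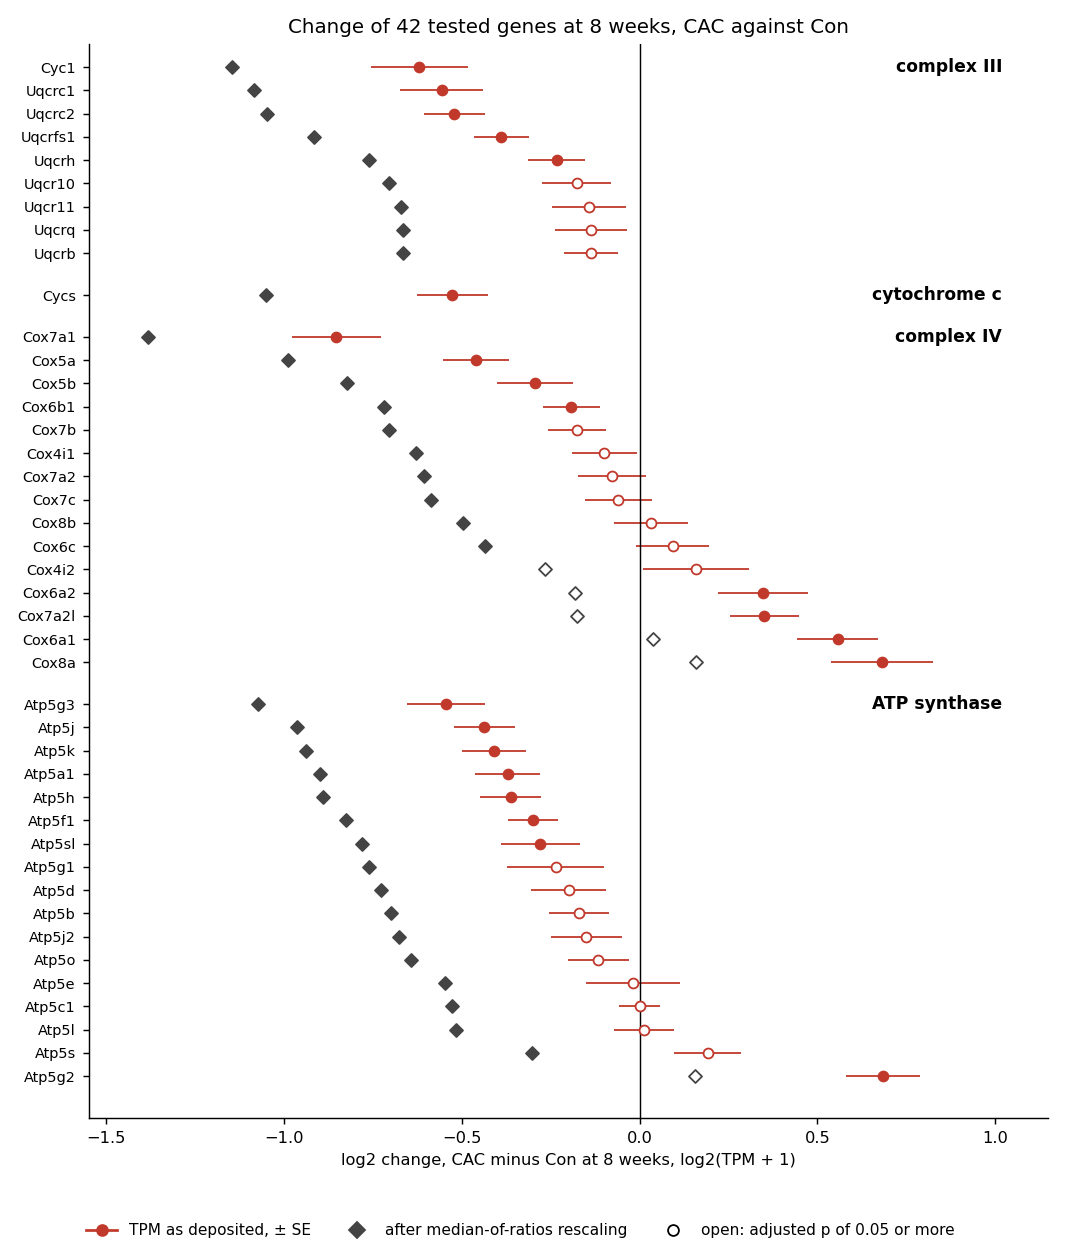
Log2 change in CAC against Con muscle at 8 weeks (x axis) for the 42 tested genes by complex (y axis); red circles with bars are values as deposited ± SE, dark diamonds are values after rescaling, and open symbols have an adjusted p of at least 0.05. Cox7a1 lies farthest to the left at -0.85 as deposited, while Atp5g2 and Cox8a lie farthest to the right at 0.68 and 0.68; no diamond to the right of 0 is filled.

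At 2 weeks no gene of the set was called in either direction by limma. At an unadjusted p under 0.05, 1 was lower and 1 higher. All shares of all genes in this paragraph are at an adjusted p under 0.05. Over all genes 0% were called lower and 0.054% higher at that week, and without Con replicate 5 again 0 of the set were called. At 4 weeks again none was called, beside 0.045% and 0.891% of all genes called lower and higher. At an unadjusted p under 0.05, 11 of the set were lower and 0 higher. The share of all genes at that looser threshold is not given here, so these 2 counts have no share beside them. After rescaling 1 gene, Cox5a, fell at 4 weeks and 0 rose, beside 0.648% and 0.9% of all genes. At 6 weeks 13 fell and 3 rose, beside 3.26% and 60.7% of all genes. After rescaling 38 fell and 0 rose at 6 weeks, beside 19.2% and 15.5%. Without CAC replicate 1 the number that fell at 6 weeks was 8 in place of 13.

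Genes of which every CAC library lay beyond every Con library were few but more frequent than in the whole table on the low side. At 8 weeks these were Atp5f1, Atp5j, Cox7a1, Cycs and Uqcrc2 below Con, 11.9% of the 42 beside 0.684% of all genes. Cox6a1, Cox8a and Atp5g2 lay above Con in every library, 7.14% beside 38%. At 6 weeks 9 genes lay below in every library, 21.4% beside 1.95%: Atp5a1, Atp5g3, Cox5a, Cox7a1, Cyc1, Cycs, Uqcrc1, Uqcrc2 and Uqcrfs1. Atp5g2 was the 1 gene above at that week, beside 44.3% of all genes. At 4 weeks Atp5f1 and Cycs were already below every Con library, 4.76% beside 0.405%, although neither was called. At 2 weeks no gene of the set was separated in this way, beside 0.027% of all genes below and 1.94% above.

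Complex III passes electrons from ubiquinol to cytochrome c through cytochrome b, which is encoded in mitochondrial DNA, the iron-sulfur protein Uqcrfs1 and cytochrome c1, encoded by Cyc1. Both of these nuclear redox subunits fell in CAC muscle at 8 weeks. Cyc1 stood at 269 to 702 TPM (median 516) in the 7 CAC libraries, against 803, 825, 767, 757 and 835 TPM in NCAC and 779, 870.4, 825, 759 and 596 TPM in Con. The highest CAC library lay below all NCAC libraries and below all but 1 of the Con libraries, Con replicate 5. Its log2 change against Con was -0.62 (SE 0.14, adjusted p = 8.81e-05), a fold of 0.676, and -1.15 after rescaling. Across 2, 4, 6 and 8 weeks Cyc1 averaged 762, 685, 566 and 518 TPM in CAC, 738, 873, 786 and 797 TPM in NCAC and 783, 841, 785 and 766 TPM in Con (SD within groups 34.6 to 158 TPM). Uqcrfs1 stood at 402 to 554 TPM (median 473) in the 7 CAC libraries, against 625.3, 660.1, 647, 596 and 619.5 TPM in NCAC and 628, 687, 621, 589 and 504 TPM in Con at 8 weeks. CAC lay wholly below NCAC, and its upper libraries again reached only Con replicate 5. The change was -0.39 (SE 0.08, adjusted p = 2.18e-05) and -0.92 after rescaling. Across the 4 times Uqcrfs1 averaged 646, 588, 513 and 463 TPM in CAC, 608, 704, 637 and 629.5 TPM in NCAC and 637, 686, 643 and 606 TPM in Con (SD within groups 24.9 to 68.6 TPM).

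The 2 core proteins of complex III, Uqcrc1 and Uqcrc2, face the matrix and hold the complex together, and both fell. Uqcrc1 stood at 149 to 343 TPM (median 257) in the 7 CAC libraries, against 393, 409, 429.7, 386 and 409.6 TPM in NCAC and 385, 416, 385, 373 and 280.2 TPM in Con at 8 weeks. All CAC libraries were below all NCAC libraries, and the CAC range reached above the lowest Con library. The log2 change against Con was -0.56 (SE 0.12, adjusted p = 4.09e-05), and -1.08 after rescaling. Means at 2, 4, 6 and 8 weeks were 404, 355, 317 and 255 TPM in CAC, 383, 441, 396 and 406 TPM in NCAC and 395, 421, 406 and 368 TPM in Con (SD within groups 14.9 to 62.7 TPM), so that the CAC mean was lower at each later time. Uqcrc2 stood at 269 to 415 TPM (median 317) in the 7 CAC libraries, against 482, 524, 472, 474 and 499.9 TPM in NCAC and 454, 502, 492, 449 and 464 TPM in Con. Here neither of the other groups overlapped with CAC. The change was -0.52 (SE 0.09, adjusted p = 7.51e-07), a fold of 0.703, and -1.05 after rescaling. Uqcrc2 averaged 474, 432, 367 and 332 TPM in CAC, 462, 530.5, 462 and 490.4 TPM in NCAC and 482, 512, 477 and 472 TPM in Con (SD within groups 9.64 to 66.6 TPM) over the same times.

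**Figure D3:**
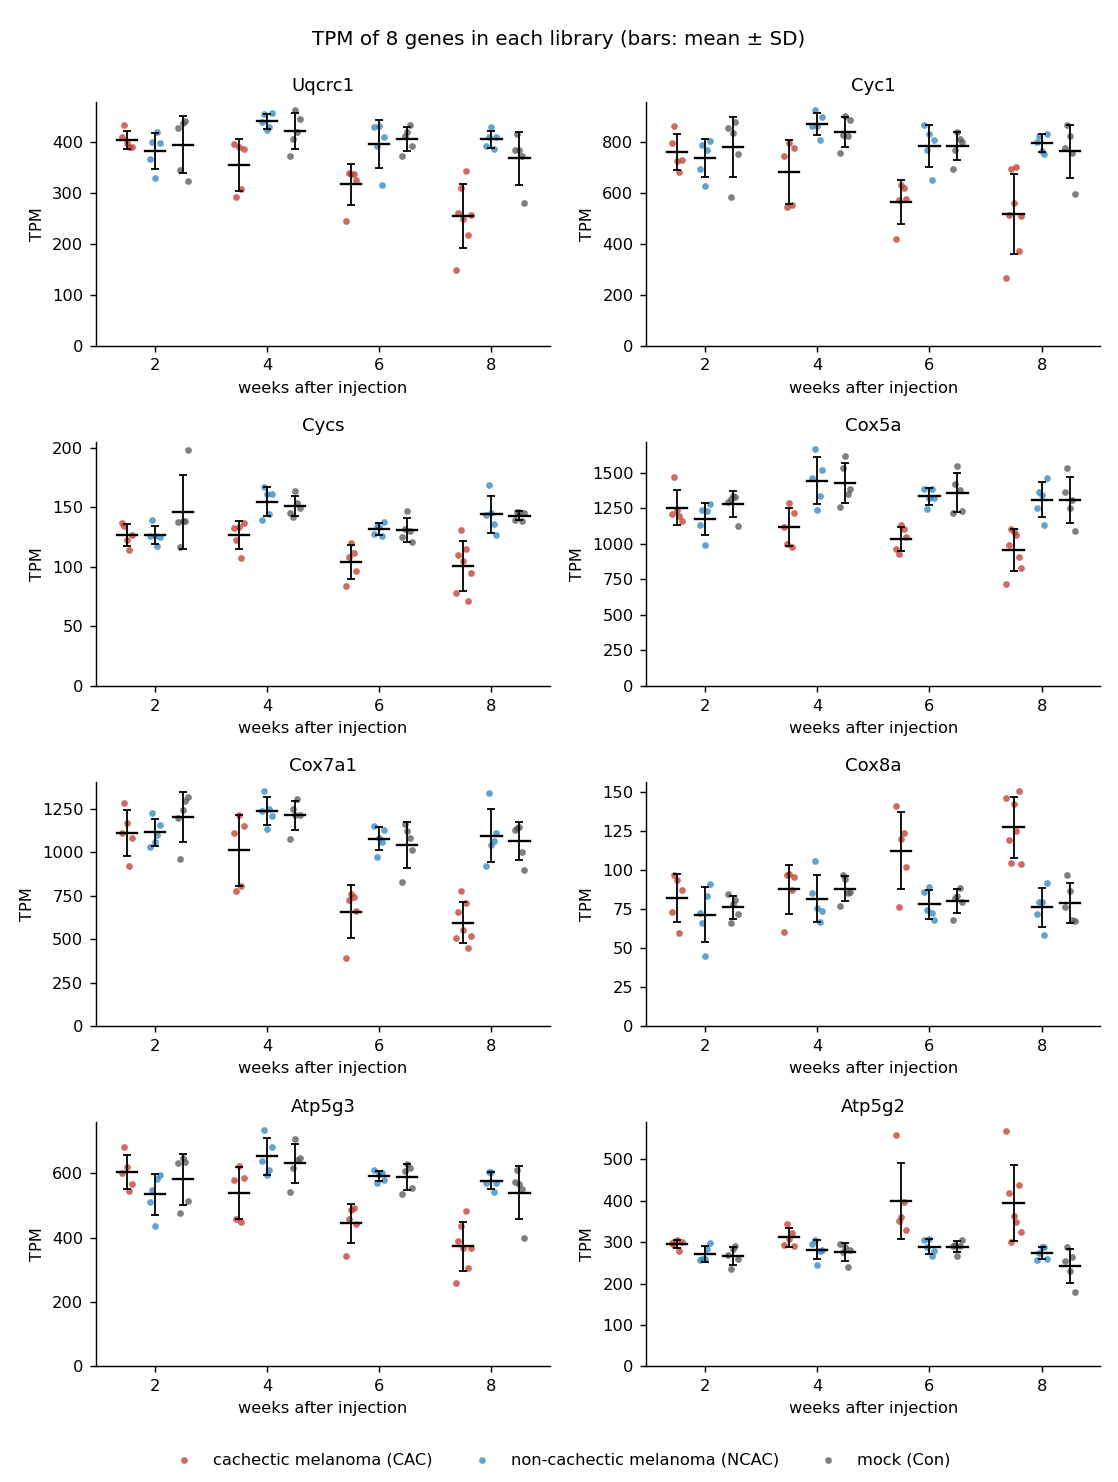
Level in TPM (y axes, linear, one per panel) of Uqcrc1, Cyc1, Cycs, Cox5a, Cox7a1, Cox8a, Atp5g3 and Atp5g2 in every library at 2, 4, 6 and 8 weeks (x axis), with CAC, NCAC and Con from left to right in each week; points are libraries and bars the mean ± SD. Cox8a and Atp5g2 lie above Con in CAC at 8 weeks (127 and 395 TPM on average, against 78.9 and 243 TPM in Con), and the other 6 lie below it.

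The small accessory subunits of complex III moved less as deposited. Uqcrh, the hinge protein that helps cytochrome c dock, fell by 0.23 on the log2 scale (adjusted p = 0.00816), and by 0.76 after rescaling. Uqcrb and Uqcrq, which sit beside cytochrome b, were not called, at -0.14 (adjusted p = 0.0963) for the first and -0.14 (adjusted p = 0.215) for the second, nor were Uqcr10 at -0.18 and Uqcr11 at -0.14. Uqcrb averaged 778, 799, 726 and 732 TPM in CAC, 826, 866, 787 and 798 TPM in NCAC and 879.7, 845, 771 and 801 TPM in Con (SD within groups 30.3 to 97.4 TPM) at 2, 4, 6 and 8 weeks. For Uqcrq the means were 362, 353, 306 and 298 TPM in CAC, 339.7, 376, 359 and 347 TPM in NCAC and 365, 359, 342 and 327 TPM in Con (SD within groups 21.1 to 60.3 TPM). After rescaling all 5 of these genes fell at 8 weeks, Uqcrb by 0.67, Uqcrq by 0.66, Uqcr10 by 0.71 and Uqcr11 by 0.67.

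Cycs encodes cytochrome c, the carrier between complexes III and IV, which also triggers caspases when it leaves mitochondria. It stood at 71.8 to 131 TPM (median 105) in the 7 CAC libraries, against 144, 169, 146, 136 and 127 TPM in NCAC and 139, 146, 146, 138 and 145 TPM in Con at 8 weeks, and CAC lay below every Con library and overlapped with the lowest NCAC library. The change against Con was -0.53 (SE 0.10, adjusted p = 1.06e-05), a fold of 0.705, and -1.05 after rescaling. At 6 weeks it was -0.33 (SE 0.11, adjusted p = 0.00689). Across 2, 4, 6 and 8 weeks Cycs averaged 127, 127, 104 and 101 TPM in CAC, 127, 155, 132 and 144 TPM in NCAC and 146, 151, 131 and 143 TPM in Con (SD within groups 3.87 to 30.8 TPM).

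Complex IV has a catalytic core of 3 mitochondrially encoded subunits, with nuclear subunits around it. Cox5a, a subunit on the matrix side, was the second largest decrease of the complex. It stood at 716 to 1101 TPM (median 995) in the 7 CAC libraries, against 1249.9, 1366, 1343, 1132 and 1464 TPM in NCAC and 1368, 1535, 1249, 1311 and 1087 TPM in Con at 8 weeks, with CAC below every NCAC library and reaching above Con replicate 5 alone. The log2 change was -0.46 (SE 0.09, adjusted p = 2.65e-05) and -0.99 after rescaling. At 4 weeks it was -0.35 (SE 0.10, adjusted p = 0.0747), and -0.48 after rescaling (adjusted p = 0.0467). Across 2, 4, 6 and 8 weeks Cox5a averaged 1255, 1119, 1034 and 956 TPM in CAC, 1175, 1445, 1334 and 1311 TPM in NCAC and 1281, 1429, 1359 and 1310.1 TPM in Con (SD within groups 57.3 to 167 TPM). Cox5b, which binds zinc, fell by 0.29 (SE 0.11, adjusted p = 0.0125), and by 0.82 after rescaling, and averaged 465, 437, 401 and 382 TPM in CAC, 409.7, 463, 448 and 437 TPM in NCAC and 437, 494, 478 and 464 TPM in Con (SD within groups 20.0 to 80.2 TPM). As deposited it was no longer called without CAC replicate 1 (-0.23, adjusted p = 0.0516). Cox6b1, at the dimer face, fell by 0.19 (adjusted p = 0.0302), and by 0.72 after rescaling. As deposited Cox6b1 was no longer called without any 1 of CAC replicates 1 and 7 or Con replicates 1, 2 and 3 (adjusted p = 0.0512 to 0.0997).

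Cox7b, Cox6c and Cox7c, small subunits in the membrane, were not called as deposited. Cox7b had -0.18 (SE 0.08, adjusted p = 0.0501), Cox6c 0.09 and Cox7c -0.06. After rescaling they fell, Cox7b by 0.70, Cox6c by 0.43 and Cox7c by 0.59. Cox7a2l, a relative of Cox7a that joins complexes III and IV into supercomplexes, rose as deposited by 0.35 (SE 0.10, adjusted p = 0.00123), with the opposite sign after rescaling, -0.18 (adjusted p = 0.134). Cox7a2l averaged 219, 222, 238 and 247 TPM in CAC, 212, 215, 209 and 204 TPM in NCAC and 205, 214, 208 and 189 TPM in Con (SD within groups 7.31 to 61.0 TPM) at 2, 4, 6 and 8 weeks.

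For 4 subunits of complex IV a pair of forms was compared, and the relative level of the forms within a library does not depend on its scaling except through the added 1 TPM. Cox7a1, the Cox7a form of heart and skeletal muscle, had the largest decrease of all 42 genes. It stood at 452 to 777 TPM (median 550.1) in the 7 CAC libraries, against 920.3, 1339, 1042, 1063 and 1111 TPM in NCAC and 1129, 1138, 1146, 1001 and 899.7 TPM in Con at 8 weeks. Neither other group overlapped with CAC. Its log2 change was -0.85 (SE 0.13, adjusted p = 9.46e-08), a fold of 0.560, and -1.38 after rescaling. Cox7a1 averaged 1112, 1012, 657 and 595 TPM in CAC, 1113, 1236, 1078 and 1095 TPM in NCAC and 1201, 1211, 1040.1 and 1063 TPM in Con (SD within groups 67.8 to 204 TPM) at 2, 4, 6 and 8 weeks. Cox7a2, the form of most tissues, had a change of -0.08 (SE 0.10, adjusted p = 0.47) at 8 weeks and was not called, and fell by 0.61 after rescaling. Its means were 373, 371, 339 and 362 TPM in CAC, 358, 404, 376 and 387 TPM in NCAC and 403, 414, 366 and 379.9 TPM in Con (SD within groups 14.5 to 56.5 TPM).

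The ratio of Cox7a1 to Cox7a2 was accordingly lower in CAC. At 8 weeks it lay at 1.21 to 1.97 (median 1.85) in the 7 CAC libraries, against 2.67, 2.87, 2.91, 2.85 and 2.84 in NCAC and 2.77, 2.75, 3.06, 2.62 and 2.78 in Con. No CAC library overlapped with another group. The difference of the log2 ratio between CAC and Con was -0.78 (exact permutation p = 0.00253, adjusted p = 0.0397), where p is the smallest that 7 libraries against 5 allow and the adjustment covers 5 pairs at 4 times. Without any 1 of Con replicates 1 to 4 the adjusted p was 0.0529. At 6 weeks the ratio was 1.10, 2.38, 2.15, 2.06 and 2.07 in CAC, against 2.97, 2.63, 2.94, 2.94 and 2.85 in NCAC and 2.45, 3.03, 2.82, 2.97 and 2.90 in Con. The CAC libraries lay below the Con libraries, and replicate 1 was the lowest by a wide margin. The difference was -0.58 (exact permutation p = 0.00794, adjusted p = 0.0397). At 4 weeks it was -0.12 (exact permutation p = 0.206, adjusted p = 0.375) and at 2 weeks 0.00 (exact permutation p = 0.992, adjusted p = 0.992), so neither earlier time passed. At those times the ratio averaged 3.00 ± 0.218 in CAC, 3.12 ± 0.214 in NCAC and 2.99 ± 0.0921 in Con (2 weeks) and 2.71 ± 0.276 in CAC, 3.07 ± 0.226 in NCAC and 2.93 ± 0.210 in Con (4 weeks).

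**Figure D4:**
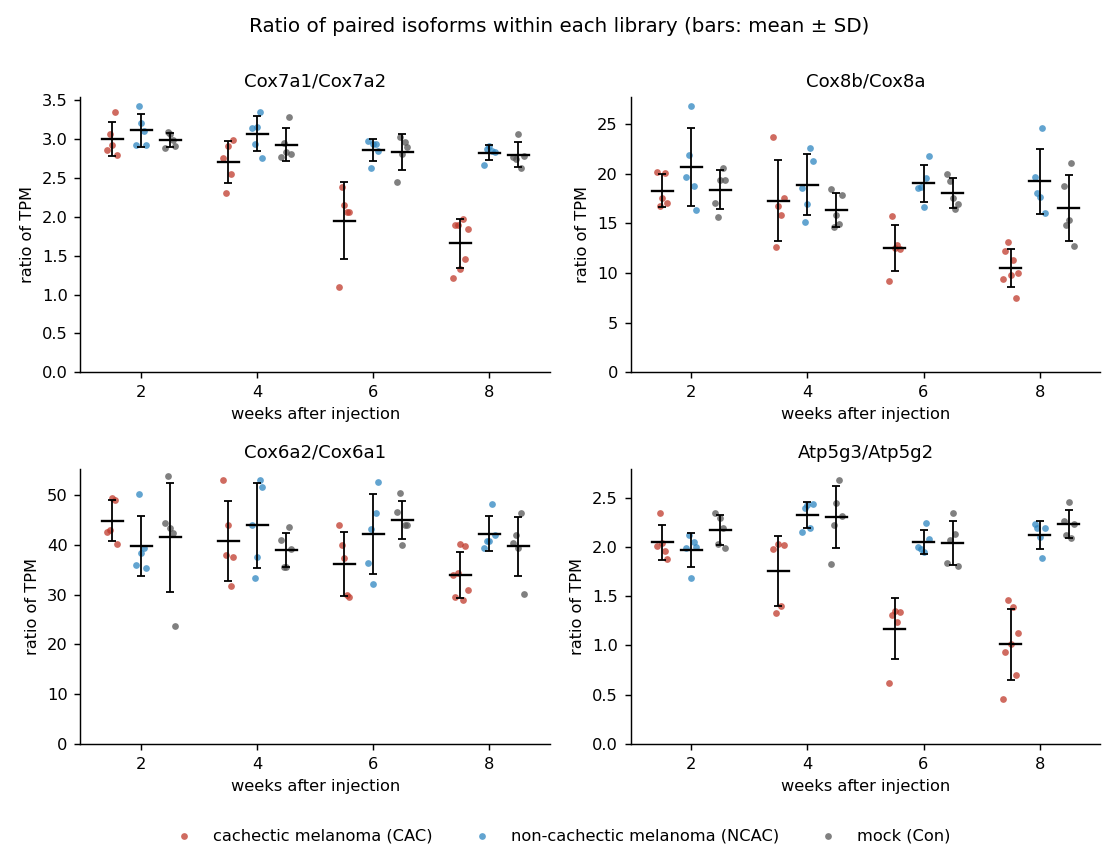
Ratio of TPM (y axes, linear) of Cox7a1 to Cox7a2, Cox8b to Cox8a, Cox6a2 to Cox6a1 and Atp5g3 to Atp5g2 in every library at 2, 4, 6 and 8 weeks (x axis), with CAC, NCAC and Con from left to right in each week; points are libraries and bars the mean ± SD. At 8 weeks the ratio of Cox7a1 to Cox7a2 averages 1.66 ± 0.313 in CAC, 2.83 ± 0.0941 in NCAC and 2.80 ± 0.161 in Con.

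The Cox8 forms differed in the same direction. Cox8a, the form of most tissues, stood at 104 to 151 TPM (median 125) in the 7 CAC libraries, against 71.7, 79.5, 79.2, 58.1 and 91.4 TPM in NCAC and 76.2, 96.5, 86.7, 68.2 and 67.0 TPM in Con at 8 weeks, with every CAC library above both other groups. Its change was 0.68 (SE 0.14, adjusted p = 4.18e-05), a fold of 1.61, while after rescaling it was 0.16 and not called (adjusted p = 0.371). Cox8a averaged 81.99, 87.5, 112 and 127 TPM in CAC, 71.5, 81.5, 77.9 and 76.0 TPM in NCAC and 76.2, 88.0, 80.3 and 78.9 TPM in Con (SD within groups 7.41 to 24.6 TPM) at 2, 4, 6 and 8 weeks. Cox8b, the muscle form, had 0.03 (SE 0.10, adjusted p = 0.785) as deposited and -0.50 after rescaling, and averaged 1482, 1469, 1368 and 1311 TPM in CAC, 1422, 1511, 1471 and 1429 TPM in NCAC and 1408, 1431, 1442 and 1297 TPM in Con (SD within groups 26.1 to 252 TPM). The ratio of Cox8b to Cox8a lay at 7.46 to 13.1 (median 10.03) in the 7 CAC libraries, against 19.7, 18.1, 17.7, 24.6 and 16.1 in NCAC and 18.7, 14.9, 15.4, 21.0 and 12.7 in Con at 8 weeks. CAC was below every NCAC library and overlapped slightly with Con. The log2 ratio differed from Con by -0.65 (exact permutation p = 0.00505, adjusted p = 0.0397) at 8 weeks and by -0.54 (exact permutation p = 0.00794, adjusted p = 0.0397) at 6 weeks. Without any 1 of Con replicates 1 to 4 the adjusted p at 8 weeks was 0.0606.

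The starts of these 4 genes are shown so that the muscle and the general form of each subunit can be compared as sequence. They run from 250 bases before to 50 bases after the annotated start, from RefSeq on GRCm38.p6, in the direction of the gene. Capitals mark matches on either strand to CAGCTG, an E-box that muscle regulatory factors are known to bind, or to CCGGAAG, a site of ETS factors such as GABP. Cox7a1 lies at chr7:30183921-30184220, plus strand, and Cox7a2 at chr9:79759804-79760103, minus strand, and neither window holds a match. Cox8b lies at chr7:140900397-140900696, minus strand, with CAGCTG on both sides of the start. Cox8a lies at chr19:7217567-7217866, minus strand, with CCGGAAG on the opposite strand in 2 places.
Cox7a1 promoter: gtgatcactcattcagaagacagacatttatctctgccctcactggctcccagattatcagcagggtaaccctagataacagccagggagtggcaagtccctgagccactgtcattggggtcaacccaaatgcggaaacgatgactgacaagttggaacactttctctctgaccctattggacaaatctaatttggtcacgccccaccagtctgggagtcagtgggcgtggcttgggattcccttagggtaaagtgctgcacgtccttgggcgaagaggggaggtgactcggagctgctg
Cox7a2 promoter: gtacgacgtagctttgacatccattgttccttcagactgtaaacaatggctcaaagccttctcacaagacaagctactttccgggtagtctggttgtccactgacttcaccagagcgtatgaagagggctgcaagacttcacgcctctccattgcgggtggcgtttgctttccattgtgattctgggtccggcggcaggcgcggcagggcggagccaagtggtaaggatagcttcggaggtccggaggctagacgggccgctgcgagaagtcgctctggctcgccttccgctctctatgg
Cox8b promoter: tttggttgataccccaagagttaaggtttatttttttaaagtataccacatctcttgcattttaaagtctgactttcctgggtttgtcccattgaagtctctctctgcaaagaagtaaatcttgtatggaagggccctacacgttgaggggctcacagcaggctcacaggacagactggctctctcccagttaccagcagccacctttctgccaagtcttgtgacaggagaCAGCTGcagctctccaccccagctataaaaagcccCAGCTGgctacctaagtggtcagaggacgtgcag
Cox8a promoter: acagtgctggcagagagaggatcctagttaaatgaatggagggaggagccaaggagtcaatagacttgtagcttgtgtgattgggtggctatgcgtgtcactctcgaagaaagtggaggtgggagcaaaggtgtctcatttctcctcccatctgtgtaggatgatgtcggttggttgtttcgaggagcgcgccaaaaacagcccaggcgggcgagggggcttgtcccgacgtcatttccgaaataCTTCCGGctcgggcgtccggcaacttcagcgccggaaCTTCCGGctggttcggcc

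Cox6a2 and Cox6a1, the muscle and general forms of another subunit, both rose as deposited, and neither was called after rescaling. Cox6a1 stood at 55.6 to 71.4 TPM (median 60.2) in the 7 CAC libraries, against 43.7, 43.8, 49.2, 38.2 and 46.0 TPM in NCAC and 42.5, 47.4, 46.5, 39.0 and 37.7 TPM in Con at 8 weeks, with every CAC library above both other groups. The change was 0.56 (SE 0.11, adjusted p = 2.89e-05), and 0.04 after rescaling (adjusted p = 0.819). Cox6a1 averaged 45.3, 49.0, 60.4 and 63.3 TPM in CAC, 41.96, 47.9, 44.4 and 44.2 TPM in NCAC and 41.8, 49.8, 44.8 and 42.6 TPM in Con (SD within groups 4.02 to 10.5 TPM) at 2, 4, 6 and 8 weeks. Cox6a2 covered 1859 to 2874 TPM (median 2058) in the 7 CAC libraries, against 1721, 1790.1, 2004, 1844 and 1932 TPM in NCAC and 1719.9, 1989, 1829, 1810.1 and 1140.3 TPM in Con, and CAC and Con overlapped. Its change of 0.35 (SE 0.13, adjusted p = 0.0123) had the opposite sign after rescaling, -0.18 (adjusted p = 0.247). As deposited, Cox6a2 was no longer called without Con replicate 5 (0.21, adjusted p = 0.132). Over time it averaged 2025, 1971, 2177 and 2145 TPM in CAC, 1660.3, 2042, 1838 and 1858 TPM in NCAC and 1698, 1924, 2008 and 1698 TPM in Con (SD within groups 106 to 508 TPM). Their ratio averaged 34.0 ± 4.65 in CAC, 42.2 ± 3.50 in NCAC and 39.7 ± 5.94 in Con at 8 weeks, a log2 difference from Con of -0.21 (exact permutation p = 0.114, adjusted p = 0.282), which did not pass.

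Cox4i1, the usual form of the subunit that adjusts the enzyme to ATP, had -0.10 (SE 0.09, adjusted p = 0.32) and was not called, and fell by 0.63 after rescaling. It averaged 779, 727, 716 and 648 TPM in CAC, 722, 832, 790.5 and 775 TPM in NCAC and 711, 793, 788 and 699 TPM in Con (SD within groups 38.0 to 116 TPM) at 2, 4, 6 and 8 weeks. Cox4i2 was low in all groups, with means of 5.44, 4.01, 4.14 and 4.85 TPM in CAC, 4.77, 4.36, 4.30 and 4.20 TPM in NCAC and 4.60, 5.17, 4.40 and 4.20 TPM in Con (SD within groups 0.612 to 1.499 TPM). Their ratio was 143 ± 36.7 in CAC, 189 ± 34.3 in NCAC and 177 ± 61.0 in Con at 8 weeks, and its log2 difference from Con was -0.26 (exact permutation p = 0.27, adjusted p = 0.45).

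ATP synthase has a catalytic head of alpha and beta subunits, encoded by Atp5a1 and Atp5b, on a central stalk. Atp5a1 stood at 904 to 1585 TPM (median 1363) in the 7 CAC libraries, against 1703, 1779, 2036, 1765 and 1744 TPM in NCAC and 1759, 1901, 1715, 1682 and 1419.6 TPM in Con at 8 weeks. CAC lay below every NCAC library and overlapped with Con replicate 5. Its change was -0.37 (SE 0.09, adjusted p = 0.000377) and -0.90 after rescaling, and it averaged 1746, 1588, 1552 and 1325 TPM in CAC, 1711, 1944, 1697 and 1806 TPM in NCAC and 1711, 1851, 1821 and 1695 TPM in Con (SD within groups 62.7 to 234 TPM) at 2, 4, 6 and 8 weeks. Atp5b, with -0.17 (SE 0.08, adjusted p = 0.0611), was not called as deposited and fell by 0.70 after rescaling. The means of Atp5b were 1686, 1571, 1553 and 1377 TPM in CAC, 1591, 1778, 1566 and 1660.1 TPM in NCAC and 1627, 1709, 1683 and 1543 TPM in Con (SD within groups 72.8 to 240.3 TPM). The stalk subunits gamma, delta and epsilon (Atp5c1, Atp5d and Atp5e) had 0.00, -0.20 and -0.02, none of them called as deposited, and fell by 0.53, 0.73 and 0.55 after rescaling.

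The peripheral stalk holds the head still against the turning ring, and 3 of its 4 subunits fell. Atp5j, subunit F6, stood at 132 to 199 TPM (median 171) in the 7 CAC libraries, against 223, 236, 202, 231 and 235 TPM in NCAC and 229, 241, 223, 229 and 213 TPM in Con at 8 weeks. CAC lay below every library of the other groups. The change was -0.44 (SE 0.09, adjusted p = 2.05e-05) and -0.96 after rescaling, with means of 228, 216, 173 and 169 TPM in CAC, 219, 240.2, 225 and 225 TPM in NCAC and 236, 241, 222 and 227 TPM in Con (SD within groups 10.2 to 27.9 TPM) at 2, 4, 6 and 8 weeks. Atp5h, subunit d, fell by 0.36 (adjusted p = 0.000213), and Atp5f1, subunit b, by 0.30 (adjusted p = 0.000205). After rescaling they fell by 0.89 and 0.83. Atp5o, the joint between stalk and head, had -0.12 (SE 0.09, adjusted p = 0.215) and was not called as deposited, and fell by 0.64 after rescaling, with means of 463, 430.3, 406 and 378 TPM in CAC, 438, 460.4, 442 and 441 TPM in NCAC and 409, 447, 437 and 409.9 TPM in Con (SD within groups 18.6 to 60.0 TPM). Among the small membrane subunits, Atp5k, subunit e, which takes part in the pairing of the enzyme, fell by 0.41 (adjusted p = 7.45e-05), and by 0.94 after rescaling. It averaged 672, 619, 528 and 510.3 TPM in CAC, 634, 708, 638 and 656 TPM in NCAC and 660.5, 687, 635 and 672 TPM in Con (SD within groups 28.2 to 87.9 TPM). Atp5l, subunit g, had 0.01 and Atp5j2, subunit f, -0.15, neither called as deposited, and after rescaling they fell by 0.52 and 0.68.

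The ring that turns in the membrane is made of a single protein, subunit c, which is encoded by 3 genes whose products differ in the leader that is cut off on import. As deposited, Atp5g3 fell and Atp5g2 rose, the second no longer called after rescaling, while Atp5g1 was not called at 8 weeks. Atp5g3 stood at 259.8 to 483 TPM (median 369) in the 7 CAC libraries, against 572, 604, 604, 541 and 570.2 TPM in NCAC and 574, 611, 567, 550.4 and 400.0 TPM in Con at 8 weeks, with CAC below all NCAC libraries and below all Con libraries but replicate 5. The change was -0.55 (SE 0.11, adjusted p = 2.23e-05), a fold of 0.690, and -1.07 after rescaling. Atp5g3 averaged 604, 539.9, 445 and 373 TPM in CAC, 535, 653, 592 and 578 TPM in NCAC and 582, 631, 588 and 540.3 TPM in Con (SD within groups 16.5 to 81.4 TPM) at 2, 4, 6 and 8 weeks. Atp5g2 stood at 299.6 to 569.7 TPM (median 362) in the 7 CAC libraries, against 257, 275, 288, 287 and 260.2 TPM in NCAC and 254, 287, 230.4, 264 and 179.6 TPM in Con, with every CAC library above every other library. Its change was 0.68 (SE 0.10, adjusted p = 2.24e-07), a fold of 1.62, and 0.16 after rescaling, where it was not called (adjusted p = 0.155). It averaged 295, 311, 399.5 and 395 TPM in CAC, 271, 281, 289 and 273 TPM in NCAC and 267, 276, 289 and 243 TPM in Con (SD within groups 10.1 to 92.6 TPM). Other genes that share sequence with Atp5g2 (Gm10175, Gm10231 and Mir688) were listed at 0 in CAC and Con at 8 weeks.

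Atp5g1, the third of them, had -0.24 (SE 0.14, adjusted p = 0.112) at 8 weeks, and -0.76 after rescaling, and fell at 6 weeks by 0.34 (SE 0.15, adjusted p = 0.0392). The 6-week call was lost without any 1 of CAC replicates 1, 2 and 5 or Con replicates 2, 3 and 5 (adjusted p = 0.0560 to 0.112). Atp5g1 averaged 195, 159.6, 157 and 157 TPM in CAC, 174, 218, 175 and 182 TPM in NCAC and 167, 205, 199 and 185 TPM in Con (SD within groups 13.044 to 38.5 TPM) at 2, 4, 6 and 8 weeks. The log2 ratio of Atp5g1 to Atp5g3 differed between CAC and Con by 0.31 (exact permutation p = 0.0682, adjusted p = 0.227) at 8 weeks. The ratio of Atp5g3 to Atp5g2 was picked after its values were seen and is described without a test. It lay at 0.456 to 1.46 (median 1.018) in the 7 CAC libraries, against 2.23, 2.20, 2.10, 1.88 and 2.19 in NCAC and 2.26, 2.12, 2.46, 2.09 and 2.23 in Con at 8 weeks. No CAC library reached the lowest library of either other group. At 2 weeks it averaged 2.05 ± 0.175 in CAC, 1.97 ± 0.169 in NCAC and 2.17 ± 0.157 in Con, at 4 weeks 1.75 ± 0.357 in CAC, 2.32 ± 0.135 in NCAC and 2.30 ± 0.315 in Con and at 6 weeks 1.17 ± 0.314 in CAC, 2.05 ± 0.119 in NCAC and 2.04 ± 0.223 in Con.

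The starts of Atp5g3 and Atp5g2, the c-ring genes with the largest decrease and increase, are given as RefSeq has them on GRCm38.p6, over the same window and in the direction of the gene. Capitals mark matches on either strand to the letters GCGCA and GCGC with any 1 base between them, a site of NRF1, an activator of mitochondrial genes, or to TCAAGGTCA, a site of estrogen-related receptors. Atp5g3 lies at chr2:73911277-73911576, minus strand, and holds one of each. Atp5g2 lies at chr15:102670998-102671297, minus strand, and holds the NRF1 motif alone.
Atp5g3 promoter: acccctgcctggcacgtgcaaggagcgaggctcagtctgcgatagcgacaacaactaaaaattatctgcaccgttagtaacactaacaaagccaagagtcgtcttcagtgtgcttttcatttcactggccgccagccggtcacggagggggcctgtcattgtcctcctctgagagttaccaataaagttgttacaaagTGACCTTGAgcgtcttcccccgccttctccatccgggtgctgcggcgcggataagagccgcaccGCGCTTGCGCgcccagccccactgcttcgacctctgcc
Atp5g2 promoter: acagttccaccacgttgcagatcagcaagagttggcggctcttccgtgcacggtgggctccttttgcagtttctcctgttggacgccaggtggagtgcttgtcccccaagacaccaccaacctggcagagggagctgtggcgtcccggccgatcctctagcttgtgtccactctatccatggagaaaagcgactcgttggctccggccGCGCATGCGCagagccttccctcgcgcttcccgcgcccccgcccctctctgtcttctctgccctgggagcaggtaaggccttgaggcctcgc

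Over the 35 genes of the set whose symbol is in the promoter table, the NRF1 motif on either strand was found in 8, or 22.9%. Of all 27025 genes in that table, expressed in muscle or not, 5.19% held it. CCGGAAG was found in 10, or 28.6%, against 9.93%. TCAAGGTCA was in Atp5g3 alone, 2.86% against 0.466%, and CAGCTG in Atp5b and Cox8b, 5.71% against 18.3%. Of the 14 of these genes that fell at 8 weeks 28.6% held the NRF1 motif and 35.7% CCGGAAG, of the 4 that rose 50% held each, and of the 15 not called 13.3% and 20%. The motifs do not overlap in letters with one another in the 6 sequences shown, and a match describes letters in the window, not binding.

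The remaining genes are counted with ATP synthase by symbol alone. Atp5sl, known as Dmac2 in RefSeq and as an assembly factor of complex I, fell by 0.28 at 8 weeks (adjusted p = 0.0212), and by 0.78 after rescaling. As deposited it was no longer called without CAC replicate 1 (adjusted p = 0.0710), CAC replicate 7 (adjusted p = 0.0502) or Con replicate 3 (adjusted p = 0.0948). Atp5s, named Dmac2l in RefSeq and also called a coupling factor, had 0.19 (SE 0.10, adjusted p = 0.0649) as deposited and -0.30 after rescaling, of the opposite sign. It averaged 14.4, 15.5, 14.6 and 16.2 TPM in CAC, 12.999, 15.4, 13.4 and 14.6 TPM in NCAC and 14.03, 14.7, 13.8 and 13.9 TPM in Con (SD within groups 0.668 to 2.65 TPM) at 2, 4, 6 and 8 weeks.

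The comparison of CAC with NCAC asks whether the presence of a melanoma without the cachectic label goes with the same levels. At 8 weeks 21 of the 42 genes fell and 4 rose in CAC against NCAC, beside 5.04% and 67% of all genes, and after rescaling 38 fell and 0 rose, beside 25.6% and 23.4%. At 6 weeks 15 fell and 3 rose, beside 3.52% and 64.2%, or 17 and 3 without NCAC replicate 4, and after rescaling 38 fell and 0 rose, beside 22.6% and 19.4%. At 4 weeks 4 fell and 0 rose, beside 0.585% and 4.68% of all genes called. At an unadjusted p under 0.05, again 0 were higher. These 4 were Cox5a at -0.37 (SE 0.10, adjusted p = 0.0218), Uqcrc2 at -0.31 (SE 0.09, adjusted p = 0.0376), Uqcrfs1 at -0.27 (SE 0.08, adjusted p = 0.0499) and Atp5f1 at -0.24 (SE 0.08, adjusted p = 0.04997). The number that fell at 4 weeks was 0 without any 1 of CAC replicates 2 and 4 or NCAC replicates 2 and 5, 1 without NCAC replicate 3 or 4, and 2 with no filter on low values. After rescaling 14 fell and 0 rose at 4 weeks, beside 4.53% and 2.64%. At 2 weeks limma called none, beside 0% and 0.063% of all genes called lower and higher. At an unadjusted p under 0.05, 0 of the set were lower and 1 higher.

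At 8 weeks the largest decreases against NCAC were Cox7a1 at -0.89 (SE 0.13, adjusted p = 3.72e-08), Uqcrc1 at -0.71 (SE 0.12, adjusted p = 9.2e-07), Cyc1 at -0.69 (SE 0.14, adjusted p = 2.2e-05) and Atp5g3 at -0.66 (SE 0.11, adjusted p = 1.17e-06). Atp5b, Cox4i1 and Atp5o, which were not called against Con, fell against NCAC by 0.28, 0.26 and 0.23 on the log2 scale (adjusted p = 0.00289, 0.00911 and 0.0137). Cox8a, Cox6a1, Atp5g2 and Cox7a2l rose as deposited, by 0.74, 0.51, 0.50 and 0.24, while after rescaling they stood at 0.23, 0.01, -0.01 and -0.26. In that scaling Cox7a2l fell (adjusted p = 0.0244). In 11 of the 42 genes every CAC library lay below every NCAC library, 26.2% beside 1.12% of all genes. In 3 every CAC library lay above, 7.14% beside 40.1%. At 6 weeks 11 genes lay below in this way, 26.2% beside 1.22%, and at 4 weeks 7, 16.7% beside 1.18%. The comparisons with NCAC and with Con share the CAC libraries.

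NCAC and Con muscle were set against each other at each week. None of the 42 genes was called by limma in any of the 4 weeks, and 0 reached an unadjusted p under 0.05. Of all genes 0.162% were called at 2 weeks, 0% at 4 and at 6 weeks and 0.009% at 8 weeks. At 8 weeks Cox7a1 averaged 1095 ± 154 TPM in NCAC and 1063 ± 109 TPM in Con, and Cyc1 averaged 797 ± 34.6 TPM in NCAC and 766 ± 104 TPM in Con (SD, n = 5 each).

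The change between CAC and Con was also compared between times. It was more negative at 8 than at 2 weeks for 13 genes and more positive for 3, beside 2.57% and 36.4% of all genes, and after rescaling these counts were 28 and 0, beside 11.3% and 8.45%. Without Con replicate 5 at 2 weeks 15 genes were called in place of 16. The 13 comprised Uqcrc1, Uqcrc2, Uqcrfs1 and Cyc1 of complex III, Cox5a, Cox6b1 and Cox7a1 of complex IV, and Atp5a1, Atp5g3, Atp5h, Atp5j, Atp5k and Atp5o of ATP synthase, while the 3 were Atp5g2, Cox6a1 and Cox8a. The changes at 8 and 6 weeks were not told apart for any of the 42 genes by limma, beside 0% of all genes called. At an unadjusted p under 0.05, the count in the set was again 0.

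The subunits that mitochondrial DNA adds to these complexes are cytochrome b of complex III, 3 core subunits of complex IV and 2 of ATP synthase. All 6 fell at 8 weeks in CAC against Con: mt-Atp8 by 0.52, mt-Co1 by 0.49, mt-Cytb by 0.43, mt-Co2 by 0.40, mt-Co3 by 0.34 and mt-Atp6 by 0.25 on the log2 scale. After rescaling they fell by 1.05, 1.01, 0.96, 0.93, 0.87 and 0.78. At 6 weeks 4 of 6 fell. Of all genes 3.26% were called lower at 6 weeks and 5.09% at 8 weeks as deposited, and 24.9% at 8 weeks after rescaling. Together they held 26.6 ± 1.42% of all TPM in CAC, 33.8 ± 1.60% in NCAC and 35.3 ± 5.09% in Con at 8 weeks.

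Among the neighbouring complexes, all 4 genes of complex II, which feeds electrons from succinate, fell at 8 weeks, with a median of -0.43: Sdhb, Sdhc, Sdhd and Sdha, by 0.52, 0.45, 0.41 and 0.34, and after rescaling by 1.05, 0.98, 0.94 and 0.87. Complex I, the entry point for NADH, was taken as 45 genes by their Nduf symbols alone, which does not set assembly factors apart. Of these, 24 fell and 6 rose, with a median of -0.18, and after rescaling 41 fell and 0 rose. Of 6 assembly factors for complex III, Bcs1l, which inserts the iron-sulfur protein, and Ttc19 fell by 0.37 and 0.27, and Uqcc2 was higher by 0.22 as deposited and lower after rescaling (-0.31), called in both. Of 22 tested for complex IV, 5 fell and 7 rose, and after rescaling 14 fell and 0 rose. Over all genes 5.09% were called lower and 69.4% higher at 8 weeks as deposited, and 24.9% and 23.8% after rescaling. These shares belong beside every count in this paragraph. Taco1, which activates translation of a core subunit, fell by 0.89, and Cox16, the copper chaperone Cox17 and Cmc1 rose by 0.51, 0.39 and 0.38 as deposited, while after rescaling they stood at 0.01, -0.11 and -0.12 and were not called. Of 5 tested for ATP synthase, Atpaf1, an assembly chaperone, fell by 0.22 (adjusted p = 0.0319), and Atpif1, which blocks the enzyme from running in reverse, was higher by 0.26 as deposited (adjusted p = 0.0161) and lower after rescaling (-0.23, adjusted p = 0.0475). These lists were chosen with earlier results of these data known.

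As deposited, the 7 CAC libraries at 8 weeks did not share one level. The values in this paragraph were not rescaled. The factors of the rescaling ran from 1.21 in replicate 7 to 1.46 in replicate 6, so the order of the libraries depends on the scaling. Over the 42 genes the median log2 ratio of a library to the Con mean was -0.35 in replicate 7, -0.30 in replicate 1, -0.29 in replicate 6, -0.13 in replicate 2, -0.12 in replicate 4, -0.11 in replicate 3 and -0.03 in replicate 5. Replicate 1 had the lowest value of the group for 15 genes and also the highest for 9, replicate 7 the lowest for 13, replicate 6 the lowest for 11 and replicate 5 the highest for 18. At 6 weeks the median was -0.27 in replicate 5, -0.19 in replicate 1, -0.18 in replicate 2, -0.09 in replicate 3 and -0.06 in replicate 4. Between 26 and 36 of the 42 genes were below the Con mean in each 8-week CAC library, and between 27 and 38 in each 6-week library. Neither these counts nor those of lowest and highest values were taken over all genes. They describe the libraries and cannot tell this set from a shift of the whole library.

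Summed levels of several marker lists of other cells were higher in CAC at 8 weeks, at a time when 69.4% of all genes were called higher as deposited. The 6 macrophage markers summed to 77.5 TPM in CAC (51.3 to 127), 17.3 TPM in NCAC and 27.1 TPM in Con (17.9 to 45.5), and 5 of 5 tested rose. The 5 endothelial markers summed to 202 TPM in CAC (177 to 227) and 126 TPM in Con (97.9 to 145), with 4 higher and Kdr lower. Fibroblast markers summed to 364 TPM in CAC (230 to 606) and 212 TPM in Con (167 to 304), with 2 of 4 higher. White adipocyte markers summed to 22.9 TPM in CAC (9.29 to 39.1) and 5.94 TPM in Con (2.23 to 11.9), with 2 of 3 tested higher. Slow fibre markers summed to 30.7 TPM in CAC and 44.9 TPM in Con, with Myl3 lower, and among muscle fibre markers Myh2, the myosin of the most oxidative fast fibres of this muscle, fell by 1.32, and by 1.85 after rescaling, while Ckm rose by 0.39 as deposited, against -0.14 after rescaling. Red blood cell markers summed to 2596 TPM in CAC and 720 TPM in Con, with 0 of 5 called and 14744 TPM in CAC replicate 3 alone, and liver markers to 5.55 TPM in CAC and 0.704 TPM in Con, with 1 of 4 higher. Brown adipocyte markers summed to 6.64 TPM in CAC and 7.74 TPM in Con, with 0 of 2 tested called. Adgre1, Lep and Ucp1, defining markers of macrophages, white and brown adipocytes, averaged under 1 TPM and were not tested. After rescaling 3 macrophage, 2 endothelial, 1 fibroblast and 1 white adipocyte markers were called higher, beside 23.8% of all genes. Markers called lower after rescaling are not counted here, and 24.9% of all genes were called lower. For the muscle fibre and slow fibre lists no count of called markers is given. The part of any of these in the changes of the respiratory genes was not tested.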

How the data were processed

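The authors deposited 1 table of TPM for 47643 gene symbols and 62 libraries. Libraries were made with the TruSeq stranded mRNA kit, per the labels' protocols. Per the submitters' processing notes, the genome build was mm10. How reads were aligned and counted, with which annotation and whether by strand, is not given in the sources used here. TPM keeps no read depth, so no interval or limit that needs depth is given. Columns were matched to samples by title, and 0 were left unmapped.

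The members, the lists and the tests were chosen with earlier results of these data known. Of 23019 genes above 0, the 11107 that averaged 1 TPM or more were kept. Their log2(TPM + 1) entered a limma model (version 3.58.1, R 4.3.3) with 12 group means, empirical Bayes with trend and 50 residual degrees of freedom. Log2 changes on this scale understate those of low genes. P-values were adjusted by Benjamini-Hochberg over all genes in each of 14 contrasts. One spread was assumed for all groups. Isoform log2 ratios of (TPM + 1) were compared by two-sided exact permutation tests, adjusted over 5 pairs at 4 times. Every gene of the set could be named. Values in every group are given for the isoform pairs, 13 subunits picked by role, and the 2 largest increases and decreases of each complex at 8 weeks. The settings varied were the pseudocount (0.1), the filter (none), rescaling, removal of mitochondrially encoded genes, only the weeks compared, a spread per group, the replicate number as a block and each library left out. The model was tested on simulated data. Shared sequence was counted on GENCODE M21 transcripts. Python 3.11.15 with numpy 2.4.6, pandas 2.3.3, scipy 1.17.1 and matplotlib 3.10.9 was used.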

Additional observations from a re-analysis of the deposited data

Results flagged for a closer look

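Chance alone sets a sample apart by the test used here in about 1 of 20 groups, and 12 were found in 177 groups tested. In single libraries far from the others of their group, the summed complex III level was 4475 TPM in Con replicate 2 at 2 weeks. The log2 ratio of Cox7a1 to Cox7a2 was 0.14 in CAC replicate 1 at 6 weeks and 1.41 in NCAC replicate 1 at 8 weeks. The log2 ratio of Cox6a2 to Cox6a1 was 4.54 in Con replicate 5 at 2 weeks, that of Cox4i1 to Cox4i2 was 6.15 in CAC replicate 3 at 8 weeks, and that of Atp5g1 to Atp5g3 was -1.81 in CAC replicate 5 at 2 weeks. Cox6a2 was high in CAC replicate 4 at 8 weeks, at 2874 TPM. In NCAC at 8 weeks Atp5a1 was high in replicate 3, at 2036 TPM, and Uqcrq in replicate 2, at 416 TPM. Con replicate 5 at 8 weeks was low for Atp5g3, Cox4i1 and Cox8b, at 400.0, 511 and 852 TPM.

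The change between CAC and Con differed between 8 and 2 weeks, by limma's test of the difference, for 16 genes. In complex III the difference (8 weeks minus 2 weeks, log2) was -0.60 for Uqcrc1 (adjusted p = 0.00689), -0.59 for Cyc1 (adjusted p = 0.0197), -0.49 for Uqcrc2 (adjusted p = 0.00295) and -0.41 for Uqcrfs1 (adjusted p = 0.00591). In complex IV it was -0.74 for Cox7a1 (adjusted p = 0.00244), -0.43 for Cox5a (adjusted p = 0.014) and -0.30 for Cox6b1 (adjusted p = 0.0421). In ATP synthase it was -0.61 for Atp5g3 (adjusted p = 0.00424), -0.43 for Atp5k (adjusted p = 0.0103), -0.42 for Atp5h (adjusted p = 0.0101), -0.40 for Atp5a1 (adjusted p = 0.0178), -0.38 for Atp5j (adjusted p = 0.0184) and -0.30 for Atp5o (adjusted p = 0.04996). It was positive for Cox8a at 0.59 (adjusted p = 0.0237), Atp5g2 at 0.54 (adjusted p = 0.00712) and Cox6a1 at 0.44 (adjusted p = 0.0332). After rescaling these last values were 0.22, 0.16 and 0.07.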

How the results depend on the processing

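A pseudocount of 0.1, no filter and only the weeks compared left every count of called genes within 1.5 times its value, except for CAC against NCAC at 4 weeks. The alternatives for that comparison and for 2 weeks were added after seeing the data. Its 4 lower genes became 2 with no filter, 7 with only the weeks compared, 14 with rescaling and 10 with a spread per group, and 0 to 6 with each library left out, with 0 higher in every setting, and at 2 weeks the counts against NCAC stayed at 0. Rescaling gave 1 gene lower at 4 weeks, 38 lower and 0 higher at 6 weeks and 36 lower and 0 higher at 8 weeks against Con, 38 lower and 0 higher against NCAC at both times, and 28 for the change from 2 to 8 weeks. Without the mitochondrially encoded genes the counts were 31 and 0 at 6 weeks and 34 and 2 at 8 weeks against Con, and 32 and 0 and 33 and 2 against NCAC. In that setting the remaining TPM were scaled to the same total again, which moves all genes. The share of all genes called there was not taken, so these counts cannot be set against the whole table. A spread per group gave 1 lower at 4 weeks against Con. Signs reversed under rescaling at 6 weeks for Atp5c1 (-0.44), Atp5g2 (-0.010), Atp5l (-0.37), Atp5s (-0.33), Cox6a1 (-0.030), Cox6a2 (-0.36) and Cox6c (-0.43), and at 8 weeks for Atp5l (-0.52), Atp5s (-0.30), Cox6a2 (-0.18), Cox6c (-0.43), Cox7a2l (-0.18) and Cox8b (-0.50).

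Replicate numbers were not taken as pairs in the main tests. Of 60 same-numbered pairs of libraries 15 correlated over 0.1 (-0.33 to 0.33, median -0.03). Pairs with different numbers were not computed, so these values cannot show whether the numbers pair the libraries. With the number as a block the counts were 14 lower and 3 higher at 6 weeks and 15 and 5 at 8 weeks against Con, and the paired log2 ratios at 8 weeks were -0.78 for Cox7a and -0.55 for Cox8 (adjusted p = 0.208 for each by exact sign flips), where 5 pairs cannot go below an exact p of 0.0625. The block joined each number across all groups and weeks. CAC replicates 6 and 7 at 8 weeks had no partner of the same number. They therefore added nothing to the blocked contrast and were left out of the paired ratios.

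With each library left out in turn, genes lower against Con numbered 0 to 1 at 4 weeks (1 without CAC replicate 3), 8 to 15 at 6 weeks (8 without CAC replicate 1) and 15 to 24 at 8 weeks, and genes higher 2 to 3 and 4 to 6. Against NCAC they numbered 11 to 18 lower and 3 to 4 higher at 6 weeks, and 18 to 25 lower and 3 to 4 higher at 8 weeks. The change from 2 to 8 weeks was called for 13 to 20. The counts at 2 weeks, for NCAC against Con and for 8 against 6 weeks stayed at 0. Log2 ratio differences ranged over -0.82 to -0.70 for Cox7a, -0.74 to -0.56 for Cox8, -0.31 to -0.15 for Cox6a, -0.39 to -0.12 for Cox4i and 0.24 to 0.40 for Atp5g1 to Atp5g3. Leaving out any 1 of Con replicates 1 to 4 at 8 weeks took the adjusted p of Cox7a to 0.0529 and of Cox8 to 0.0606. In those settings Con replicate 5 remained, whose ratio of Cox8b to Cox8a (12.7) lay below that of CAC replicate 3 (13.1). The ratio of Cox7a1 to Cox7a2 did not overlap between CAC and Con at 8 weeks with any of these libraries left out. Fewer libraries also raise the smallest p that the permutation test can reach. The adjustment joins all pairs and times, so the adjusted p of one ratio also depends on the others. The cause of the changes between settings was not tested.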
